A study of Mus musculus with 7 samples.

Results

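The genes whose symbol begins with Nduf were followed in sorted skeletal muscle satellite cells, the quiescent stem cells that lie along muscle fibres. Probe sets annotated to exactly 1 gene were taken from the deposited log2 values, the brightest was kept where a gene had more than 1, and every symbol with that start was retained. This gave 42 of 13287 named genes, made up of 5 core subunits, 28 accessory subunits and 7 assembly factors of complex I, and 2 genes that carry the Nduf name without being complex I subunits. All 42 passed the filter on low signal that left 9944 genes for testing. The lists behind these classes held 7 nuclear core subunits, 31 accessory subunits and 8 assembly factors. Thus 2 nuclear core subunits, and some genes of the other classes, had no single-gene probe set and were not measured here. Among them, Ndufb4 was left out because its probe sets are shared with Ndufb4b. The signal of such probe sets, and of near-identical copies in general, cannot be assigned to a single gene.

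Cells were sorted by FACS from TgPax7nGFP mice and their RNA was hybridised to 7 GeneChip Mouse Gene 1.0 ST arrays. There were 3 arrays of cells taken at day 4 post mortem (D4PM), 2 arrays at day 2 post mortem (D2PM) and 2 arrays of quiescent cells from mice aged 24 to 26 months (old). All 3 groups carried the same transgene, a nuclear GFP driven by Pax7 regulatory sequence that served as the sorting gate, and none received a further treatment. The array labels and the methods give months for the old mice, whereas the design text gives weeks and the series title speaks of young adult mice. The study describes the post-mortem mice as young, so the effects of age and of death cannot be told apart in any comparison with the old arrays. Arrays of young living mice were not analysed here, and no source says whether each array had its own mouse. The p-values therefore measure the spread between arrays, which may be technical.

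Complex I (NADH:ubiquinone oxidoreductase) takes electrons from NADH, passes them along iron-sulphur clusters to ubiquinone and pumps protons across the inner mitochondrial membrane. Its L-shaped structure has a matrix arm that holds the redox centres and a membrane arm that holds the proton pumps. The core subunits are conserved from bacteria and carry out catalysis, the membrane-embedded core being encoded by mitochondrial DNA. The accessory subunits surround and stabilise the core, and the assembly factors help to build the enzyme without staying in it. Quiescent satellite cells contain few mitochondria, and their respiration rises when they enter the cell cycle.

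The first question was how complex I transcripts in post-mortem cells stood against those in old cells. Post mortem was taken as the mean of the D4PM and D2PM group means, and all differences are on the log2 scale of the deposited RMA values. Of the 42 Nduf genes, 24 were higher and 1 was lower post mortem (limma, adjusted p under 0.05), against 14.4% of all genes tested that were higher and 14.7% that were lower (29.0% in either direction). Their median difference was 0.45, that of all genes tested 0.00, and 39 of 42 lay above 0. The 28 accessory subunits held most of these calls, with 20 higher and 0 lower and a median of 0.50. Of the 5 core subunits 2 were higher (median 0.17), and of the 7 assembly factors 2 were higher and 1 was lower (median 0.05). Neither of the 2 Nduf-named genes outside the complex was called. No array of old cells overlapped the 5 post-mortem arrays for 29 of the genes. In 27 of these the post-mortem arrays were all above and in 2 all below, while 22.8% and 23.2% of all genes tested had that property.

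**Figure D1:**
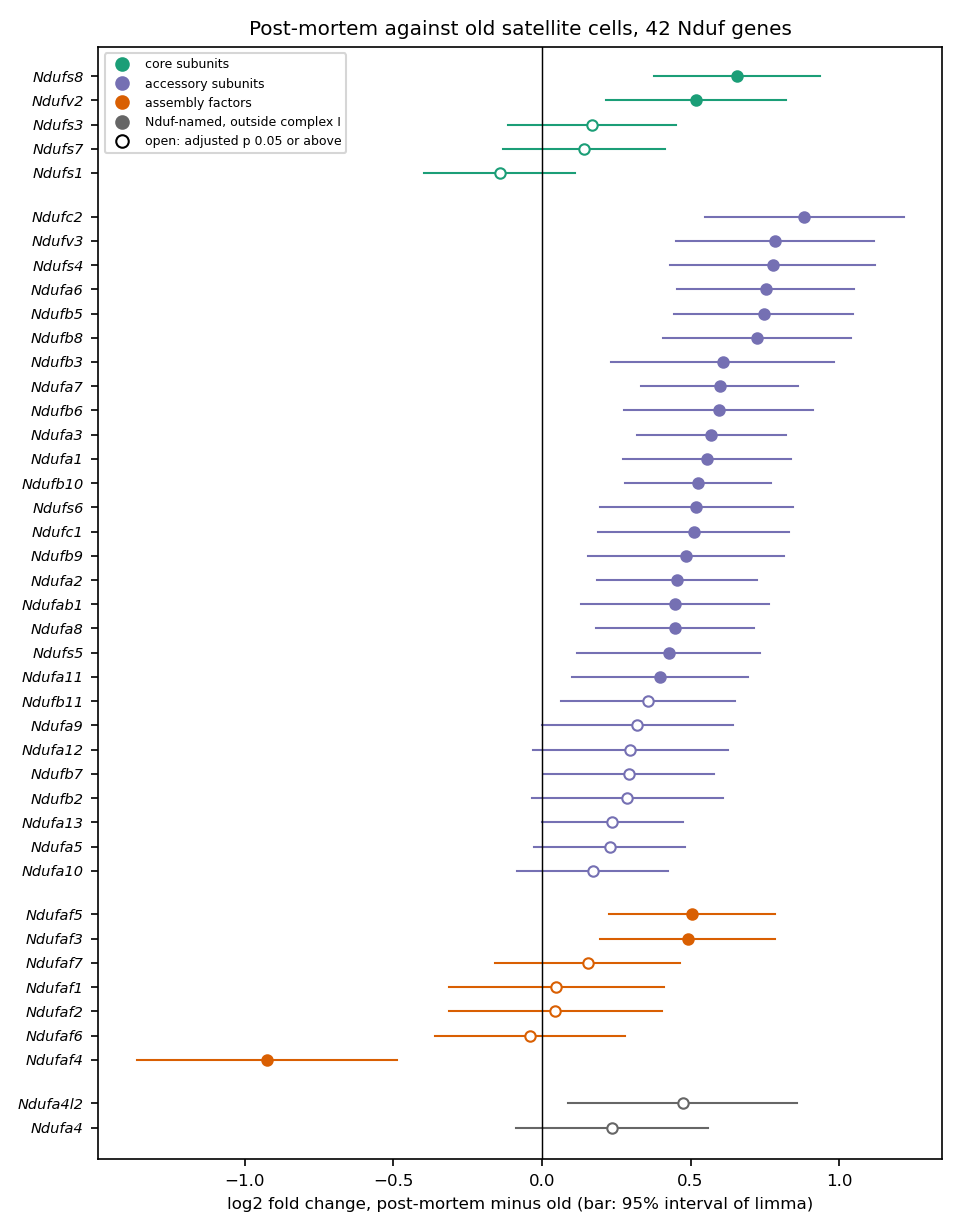
Log2 difference, post mortem minus old, of the 42 Nduf genes by class (horizontal axis), with the 95% interval of limma as a bar; filled points have an adjusted p under 0.05. All 28 accessory subunits lie to the right of 0, while core subunits and assembly factors lie on both sides.

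Among the core subunits, Ndufs8 and Ndufv2 were higher post mortem. Ndufs8, an iron-sulphur protein on the path of electrons to ubiquinone, had log2 values of 8.92, 9.07 and 9.06 on the D4PM arrays and 9.35 and 9.16 on the D2PM arrays, against 8.63 and 8.33 on the old arrays. No old array reached a post-mortem array, and the difference was 0.66 (SE 0.13, adjusted p = 0.00315), a fold of 1.58. Ndufv2, an iron-sulphur subunit of the module that accepts electrons from NADH, measured 8.42, 8.78 and 8.49 in D4PM cells and 8.77 and 8.47 in D2PM cells, against 8.03 and 8.11 in old cells. Its groups did not overlap either, with a difference of 0.52 (SE 0.14, adjusted p = 0.0157).

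The other core subunits did not pass the test. Ndufs1, the largest subunit of the NADH module, was at 7.36, 7.28 and 7.11 in D4PM cells and at 7.38 and 7.36 in D2PM cells, against 7.42 and 7.48 in old cells. Each post-mortem array lay below both old arrays, but the difference of -0.14 was small (95% interval -0.40 to 0.11, adjusted p = 0.382). For Ndufs7, a subunit at the ubiquinone site, the values were 8.01, 7.97 and 7.94 in D4PM cells and 8.23 and 7.88 in D2PM cells, against 7.91 and 7.83 in old cells, a difference of 0.14 (adjusted p = 0.415). For Ndufs3, a matrix arm scaffold of the ubiquinone module, D4PM arrays gave 8.58, 8.87 and 8.70 and D2PM arrays 9.06 and 8.82, while old arrays gave 8.58 and 8.75. Its groups overlapped and the difference was 0.17 (adjusted p = 0.352).

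The differences of the accessory subunits were all above 0, between 0.17 for Ndufa10 and 0.88 for Ndufc2. Ndufc2, a subunit of the membrane arm, had log2 values of 10.15, 10.16 and 9.97 in D4PM cells and 10.72 and 10.24 in D2PM cells, against 9.56 and 9.25 in old cells. This was a difference of 0.88 (SE 0.15, adjusted p = 0.00166), or 1.84-fold. Ndufv3, a small subunit on the NADH module, was at 9.00, 9.24 and 9.09 in D4PM cells and 9.20 and 9.03 in D2PM cells, against 8.59 and 8.06 in old cells. The old arrays of Ndufv3 lay further apart than its 5 post-mortem arrays did, and the difference was 0.78 (SE 0.15, adjusted p = 0.00315).

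Ndufs4, a matrix arm subunit whose loss in mice causes a Leigh-like brain disease, measured 8.67, 9.08 and 8.72 in D4PM cells and 9.15 and 8.68 in D2PM cells, against 8.06 and 8.13 in old cells. It was higher by 0.78 (SE 0.16, adjusted p = 0.00401) with no overlap. Ndufa6, which binds the mitochondrial acyl carrier protein, measured 8.92, 8.76 and 8.84 in D4PM cells and 9.07 and 8.75 in D2PM cells, against 8.28 and 7.96 in old cells. Here too all post-mortem arrays were above the old arrays, and the difference was 0.75 (SE 0.14, adjusted p = 0.00217). Ndufb5, of the membrane arm, was at 8.96, 9.11 and 9.01 in D4PM cells and 9.59 and 9.15 in D2PM cells, against 8.53 and 8.38 in old cells, and was higher by 0.75 (SE 0.14, adjusted p = 0.00235).

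The 15 other called accessory subunits were higher by 0.40 to 0.72. They included Ndufb8, a membrane arm subunit often used as a protein marker of assembled complex I (0.72, adjusted p = 0.00369), Ndufa7 of the matrix arm (0.60, adjusted p = 0.00385) and Ndufab1, the acyl carrier protein itself (0.45, adjusted p = 0.0376). Ndufa3, of the membrane arm, was at 9.14, 9.33 and 9.23 in D4PM cells and 9.47 and 9.35 in D2PM cells, against 8.75 and 8.76 in old cells. It was higher by 0.57 (adjusted p = 0.00374) and was the only Nduf gene that kept its call when any of the 7 arrays was left out. The 8 accessory subunits without a call were Ndufa10, Ndufa5, Ndufa13, Ndufb2, Ndufb7, Ndufa12, Ndufa9 and Ndufb11, at 0.17 to 0.36. Ndufb11, a membrane arm subunit, had a high signal on the probe set kept (mean 10.48) and a lower one on its other probe set (mean 8.74). On the kept probe set D4PM arrays gave 10.57, 10.48 and 10.59 and D2PM arrays 10.67 and 10.60, while old arrays gave 10.45 and 10.01. All post-mortem arrays lay above the old arrays, with a difference of 0.36 (adjusted p = 0.065). Ndufb11 was called when the mean of its probe sets was used, and with a trended and robust prior.

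Called genes lay in both arms of the enzyme. Of 14 matrix arm subunits 8 were higher (median 0.49), and of 18 membrane arm subunits 13 were higher (median 0.50), with Ndufab1, which sits in both arms, counted in neither. For the 5 genes with a pair of single-gene probe sets, both probe sets gave the same direction, with differences of 0.53 and 0.40 for Ndufa11, 0.42 and 0.45 for Ndufab1, 0.40 and 0.36 for Ndufb11, 0.51 and 0.51 for Ndufc1, and 0.16 and 0.17 for Ndufs3.

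The assembly factors differed among themselves. Ndufaf4, which acts early in building the ubiquinone module, was the only Nduf gene called lower post mortem. Its log2 values were 6.96, 7.65 and 7.06 in D4PM cells and 7.90 and 7.57 in D2PM cells, against 8.16 and 8.65 in old cells. The difference was -0.93 (SE 0.20, adjusted p = 0.00551), with old cells 1.90-fold higher and no overlap between the groups.

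Ndufaf3, the partner that binds Ndufaf4 in an early assembly intermediate, was called in the other direction. It was at 7.72, 7.67 and 8.05 in D4PM cells and 7.78 and 7.67 in D2PM cells, against 7.37 and 7.19 in old cells, a difference of 0.49 (SE 0.13, adjusted p = 0.0179). Ndufaf5, an enzyme that hydroxylates Ndufs7 during assembly, measured 6.50, 6.53 and 6.29 in D4PM cells and 7.08 and 6.78 in D2PM cells, against 6.18 and 6.18 in old cells. It was higher by 0.51 (SE 0.13, adjusted p = 0.0122), and its D2PM arrays stood above its D4PM arrays.

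The remaining assembly factors did not pass the test. Ndufaf2, which acts late in assembly, was at 7.58, 8.01 and 7.53 in D4PM cells and 8.31 and 7.84 in D2PM cells, against 7.84 and 7.84 in old cells (difference 0.05, adjusted p = 0.856). Ndufaf6, an early assembly factor with a low signal, was at 5.49, 5.62 and 5.58 in D4PM cells and 5.89 and 5.62 in D2PM cells, against 5.46 and 5.94 in old cells (difference -0.04, adjusted p = 0.853). The old values of Ndufaf2 lay within the post-mortem range, and those of Ndufaf6 on either side of it. Ndufaf1, part of the complex that assembles the membrane arm, and Ndufaf7, a mitochondrial methyltransferase, differed by 0.05 and 0.15 (adjusted p = 0.848 and 0.440).

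The 2 Nduf-named genes outside complex I were also not called. Ndufa4, since assigned to complex IV, was at 10.29, 10.78 and 10.42 in D4PM cells and 11.02 and 10.77 in D2PM cells, against 10.51 and 10.41 in old cells (difference 0.24, adjusted p = 0.255). Ndufa4l2, a hypoxia-induced paralogue of Ndufa4, was at 5.44, 6.08 and 5.96 in D4PM cells and 6.41 and 6.11 in D2PM cells, against 5.44 and 5.71 in old cells (difference 0.47, adjusted p = 0.064). Both overlapped between D4PM and old cells.

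**Figure D2:**
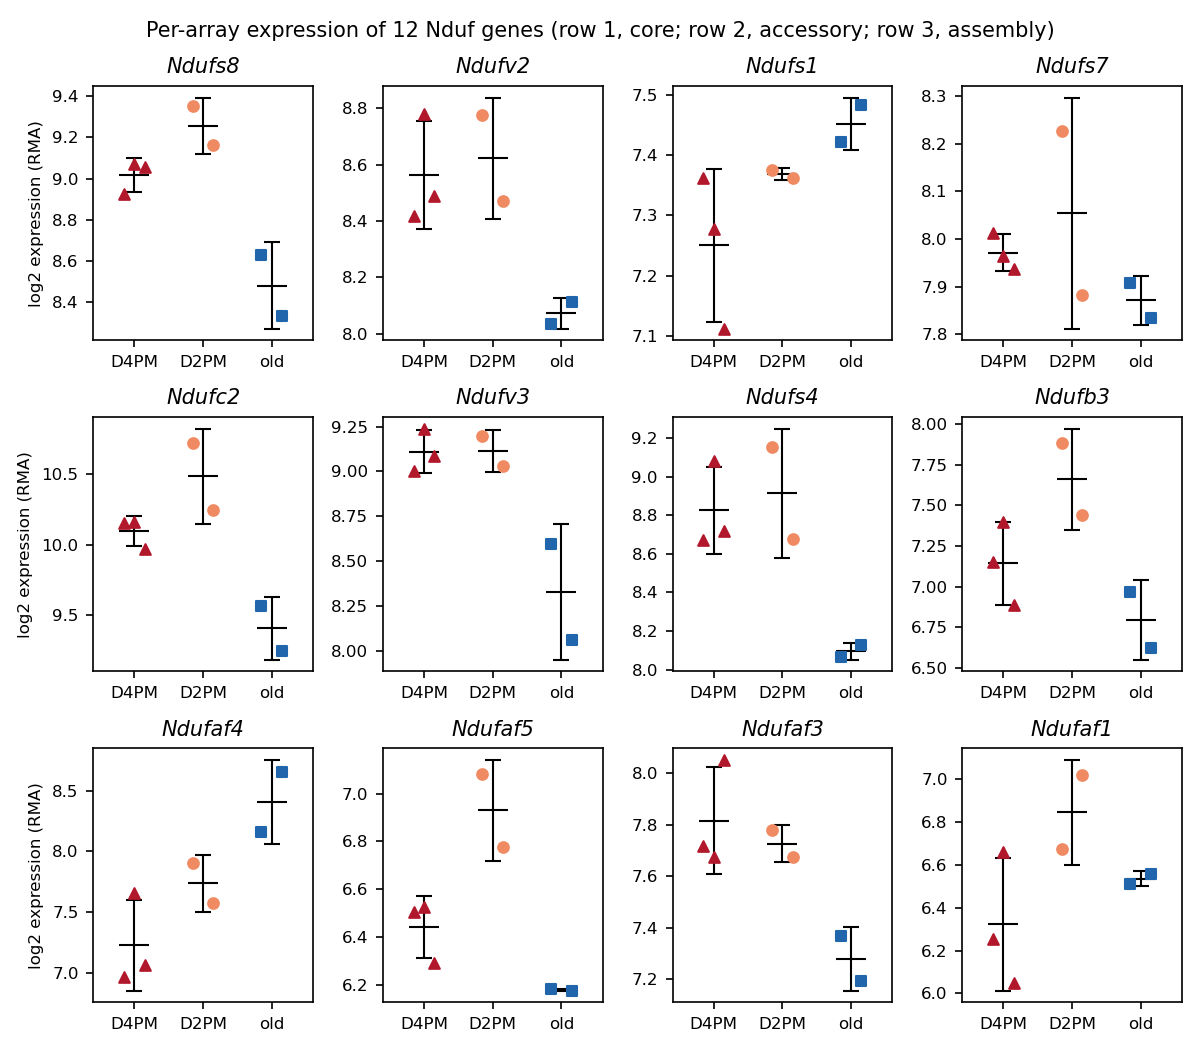
Log2 expression (RMA) on each array for 4 core subunits, 4 accessory subunits and 4 assembly factors, with the group mean and SD as black lines (D4PM, 3 arrays; D2PM, 2; old, 2) and a separate scale in each panel. Ndufaf4 and Ndufs1 are the genes in which all 5 post-mortem arrays lie below both old arrays, while in Ndufs8, Ndufv2, Ndufc2, Ndufv3, Ndufs4, Ndufaf5 and Ndufaf3 they lie above.

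The number of calls depended on single arrays. Without old replicate 2, only 1 of the 42 genes was higher post mortem and 0 were lower, while 4.09% of all genes were higher. In that fit 19 of the 42 had an unadjusted p under 0.05, as did 2703 of all 9948 genes. Without D2PM replicate 1 there were 11 higher (8.88% of all genes), and without old replicate 1 there were 14 (9.93% of all genes). The median of the accessory subunits stayed between 0.42 and 0.58 over all 7 such repeats.

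The days post mortem were then set against old cells separately, with the same old arrays in both comparisons. In D4PM cells 16 Nduf genes were higher and 1 was lower, against 12.4% and 15.5% of all genes tested (27.9% in either direction). In D2PM cells 23 were higher and 0 lower, against 10.3% and 9.11% (19.4% in either direction). Without old replicate 2, the number higher was 0 on both days, when 3.98% of all genes were higher in D4PM cells and 1.97% in D2PM cells. An unadjusted p under 0.05 was then found for 13 of the 42 in D4PM cells (2727 of all 9948 genes) and for 21 in D2PM cells (2319 of all genes). For D2PM cells it was also 0 without D2PM replicate 1 (1.81% of all genes higher, and 19 of the 42 with an unadjusted p under 0.05, against 2263 of all 9948 genes) and 11 without D2PM replicate 2 (3.94% of all genes higher).

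By class, D4PM cells had 2 of 5 core subunits, 13 of 28 accessory subunits and 1 of 7 assembly factors higher. In D2PM cells the counts were 2, 19 and 1, and Ndufa4l2 was called as well. The medians in D4PM cells were 0.10 for core subunits, 0.39 for accessory subunits and -0.14 for assembly factors, and in D2PM cells 0.28, 0.55 and 0.23. Among core subunits, Ndufs8 differed from old cells by 0.54 in D4PM cells (SE 0.14, adjusted p = 0.0138) and by 0.78 in D2PM cells (SE 0.15, adjusted p = 0.00567). Ndufv2 differed by 0.49 (SE 0.15, adjusted p = 0.0309) and 0.55 (SE 0.16, adjusted p = 0.0372).

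In D4PM cells the accessory subunits with the largest differences from old cells were Ndufv3 (0.78, SE 0.16, adjusted p = 0.0051), Ndufs4 (0.73, SE 0.17, adjusted p = 0.00868), Ndufa6 (0.72, SE 0.15, adjusted p = 0.00453) and Ndufc2 (0.69, SE 0.17, adjusted p = 0.00995). In D2PM cells they were Ndufc2 (1.08, SE 0.18, adjusted p = 0.00281), Ndufb5 (0.92, SE 0.16, adjusted p = 0.00376), Ndufb3 (0.87, SE 0.20, adjusted p = 0.0137) and Ndufs4 (0.82, SE 0.19, adjusted p = 0.0121). Ndufb3, of the membrane arm, was called in D2PM cells and reached 0.35 in D4PM cells (adjusted p = 0.186). Its values were 7.15, 7.40 and 6.89 in D4PM cells and 7.88 and 7.44 in D2PM cells, against 6.97 and 6.62 in old cells.

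Among assembly factors, Ndufaf4 differed from old cells by -1.18 in D4PM cells (SE 0.22, adjusted p = 0.00241) and by -0.67 in D2PM cells (SE 0.24, adjusted p = 0.0702). Ndufaf3 was higher in D4PM cells by 0.54 (SE 0.15, adjusted p = 0.0182), with 0.45 in D2PM cells (adjusted p = 0.0721). Ndufaf5 was higher in D2PM cells by 0.75 (SE 0.15, adjusted p = 0.00696), with 0.26 in D4PM cells (adjusted p = 0.184). Ndufa4l2 was higher in D2PM cells by 0.69 (SE 0.21, adjusted p = 0.0390), with 0.26 in D4PM cells (adjusted p = 0.339). A call on a single day does not show that the days differed, which the next comparison tested.

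Between day 4 and day 2 post mortem, no Nduf gene passed the test (limma, 0 of 42 against 0.191% of all genes tested). The differences nonetheless lay mostly on one side, with 39 of 42 below 0 (5625 of all 9944 genes) and a median of -0.19 against -0.03 over all genes. An unadjusted p under 0.05 was found for 8 of the 42 and for 772 of all genes. The medians were -0.12 for core subunits, -0.18 for accessory subunits and -0.36 for assembly factors. All D4PM arrays lay below both D2PM arrays in 12 genes and above in 0, compared with 15.6% and 9.69% of all genes tested. Without D2PM replicate 1, the array with the highest level of these genes, 29 of 42 lay below 0, 1 had an unadjusted p under 0.05 and the accessory median was -0.06. Without D4PM replicate 2, 15 of the 42 had an unadjusted p under 0.05, as did 1077 of all 9942 genes.

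The smallest unadjusted p-values belonged to Ndufaf5, Ndufaf1 and Ndufb3. Ndufaf5 was at 6.50, 6.53 and 6.29 in D4PM cells, against 7.08 and 6.78 in D2PM cells, a difference of -0.49 (95% interval -0.79 to -0.19, adjusted p = 0.383). Ndufaf1 was at 6.26, 6.66 and 6.05 in D4PM cells, against 6.67 and 7.02 in D2PM cells, a difference of -0.52 (95% interval -0.92 to -0.13, adjusted p = 0.546). Ndufb3 also differed by -0.52 (95% interval -0.93 to -0.11, adjusted p = 0.554). At the other end, Ndufb10 of the membrane arm had a difference of 0.00 (95% interval -0.27 to 0.27), so that a difference of up to 0.27 in either direction stayed within its interval.

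**Figure D3:**
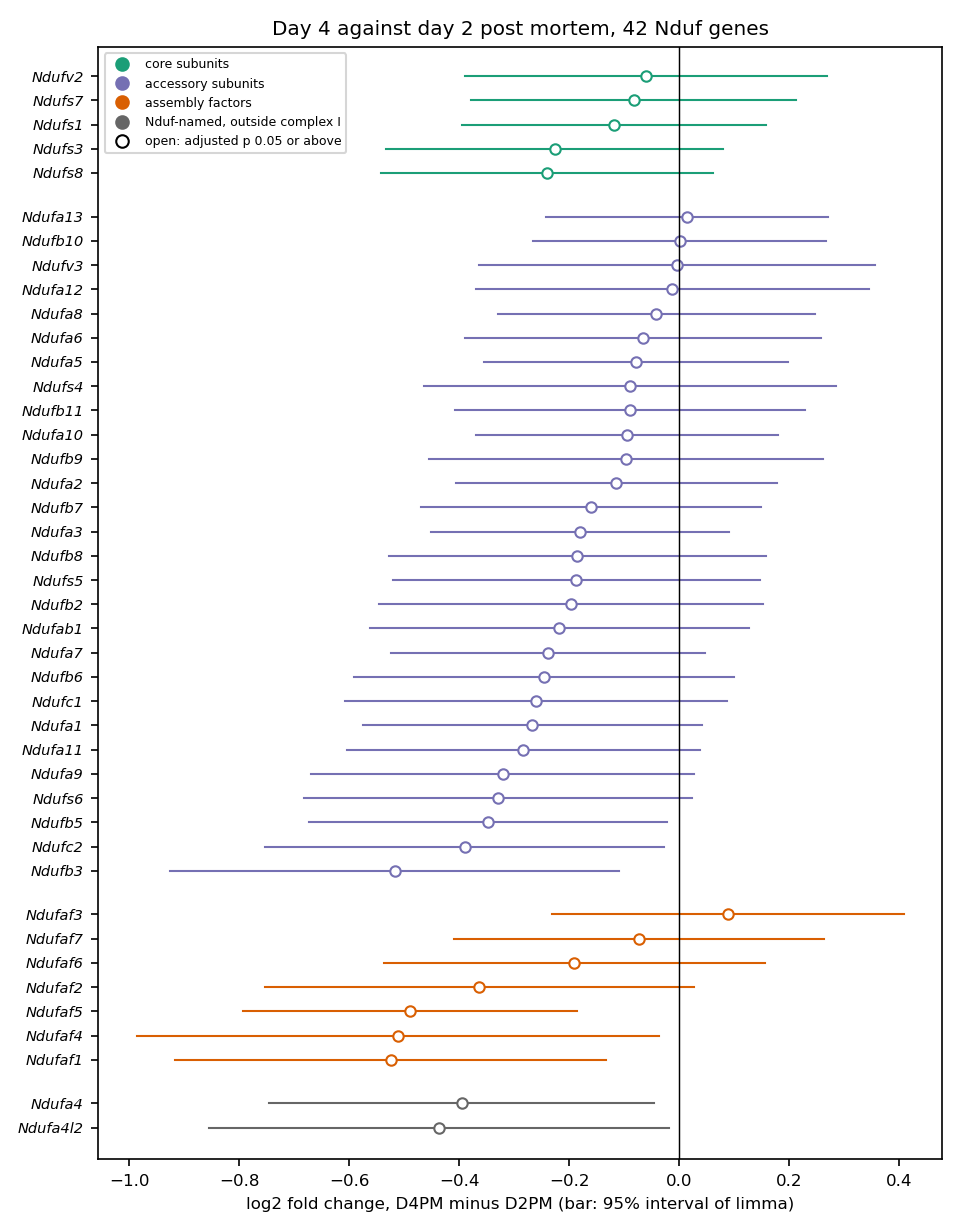
Log2 difference, D4PM minus D2PM, of the 42 Nduf genes by class (horizontal axis), with the 95% interval of limma as a bar; open points have an adjusted p of 0.05 or above. No point is filled, and 39 of the 42 lie to the left of 0.

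Promoter sequences from RefSeq (build GRCm38.p6), each running from 250 bases before to 50 after the start of transcription, were found for 37 of the 42 genes, and 22 of these 37 were higher and 1 lower post mortem. They were searched on both strands for the core letters of factors that regulate nuclear genes of respiration. The letters AAGATGGC, which match YY1 and contain the start codon letters ATG, occurred in 7 of the 37 promoters (18.9%), in 5.27% of the 7877 promoters of tested genes and in 3.19% of all promoters. In all 7 the match lay on the strand of the gene, between 22 and 45 bases after the start. The match is in capitals, and these stretches are given because the genes that hold it include core and accessory subunits, of which 5 were higher post mortem (Ndufa3, Ndufb8, Ndufc1, Ndufs4 and Ndufs6) and 2 were not called (Ndufa9 and Ndufs7).
Ndufa3, chr7:3617384-3617413, + strand: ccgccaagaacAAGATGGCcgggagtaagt
Ndufa9, chr6:126849097-126849126, - strand: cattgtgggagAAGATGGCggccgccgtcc
Ndufb8, chr19:44555393-44555422, - strand: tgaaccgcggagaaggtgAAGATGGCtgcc
Ndufc1, chr3:51408915-51408944, - strand: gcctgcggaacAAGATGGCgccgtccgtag
Ndufs4, chr13:114388045-114388074, - strand: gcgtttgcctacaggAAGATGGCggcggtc
Ndufs6, chr13:73328433-73328462, - strand: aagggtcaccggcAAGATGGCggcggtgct
Ndufs7, chr10:80249462-80249491, + strand: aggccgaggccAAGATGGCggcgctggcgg

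The letters GCGCATGCG, which match NRF1, a regulator of many nuclear genes of respiration, occurred in 4 of the 37 promoters (10.8%), against 4.08% of tested genes and 1.95% of all promoters. The 4 genes were Ndufaf4, which was lower post mortem, and Ndufaf5, Ndufa11 and Ndufa8, which were higher, so that genes with the same letters were called in opposite directions. The matches, or their reverse complement in Ndufa8, are in capitals.
Ndufaf4, chr4:24897924-24898023, + strand: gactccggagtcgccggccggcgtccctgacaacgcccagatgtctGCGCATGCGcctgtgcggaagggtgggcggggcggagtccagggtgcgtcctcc
Ndufaf5, chr2:140170652-140170681, + strand: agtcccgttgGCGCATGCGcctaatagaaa
Ndufa11, chr17:56717656-56717755, + strand: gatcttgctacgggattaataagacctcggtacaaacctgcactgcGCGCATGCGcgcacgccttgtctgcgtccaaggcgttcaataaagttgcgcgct
Ndufa8, chr2:36049339-36049438, - strand: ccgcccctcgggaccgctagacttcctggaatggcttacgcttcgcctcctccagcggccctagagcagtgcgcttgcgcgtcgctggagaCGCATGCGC

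The letters CCGGAAG, which match GABPA, were in 5 of the 37 promoters (13.5%), against 19.4% of tested genes and 9.93% of all promoters, and 2 of the 5 genes were higher post mortem. These were Ndufs8 and Ndufb6, while Ndufs3, Ndufb7 and Ndufaf1 were not called. Ndufs3, also a core subunit, held a match on each strand. Ndufs8, the core subunit with the largest difference, is given as an example. Its match lies just after the start, and the reverse complement is in capitals.
Ndufs8, chr19:3912741-3912770, - strand: ttaggctccgcCTTCCGGttgaaccgcatc

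The letters TCAAGGTCA, which match the oestrogen-related receptors, were found in 0 of the 37 promoters and in 0.317% of tested genes. These are counts of letters in a fixed window, and binding was not measured.

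The other genes of the respiratory chain gave a context for the Nduf genes. Of 8 further assembly factors of complex I that do not carry the Nduf name, 4 were higher and 0 lower post mortem (median 0.32). Tmem126b, part of the same assembly complex as Ndufaf1, was higher by 1.15 (adjusted p = 0.000303) and Lyrm2, which acts on the NADH module, by 0.80 (adjusted p = 0.000477). Of 32 nuclear genes of complexes II to IV and the ATP synthase, 10 were higher and 0 lower (median 0.29). The counts were 1 of 3 for complex II, 2 of 9 for complex III, 1 of 8 for complex IV and 6 of 12 for the ATP synthase. Of all genes tested 14.4% were higher and 14.7% lower. The count for complex IV did not exceed that share, and the lists of complexes II and III are short. The called genes with the largest differences were Sdhd, a membrane anchor of complex II (0.49, adjusted p = 0.0125), Uqcr11 and Uqcr10, small subunits of complex III (0.77 and 0.40, adjusted p = 0.00157 and 0.0391), Cox7b of complex IV (0.42, adjusted p = 0.0239), and Atp5c1 and Atp5g2, the gamma subunit and a ring subunit of the ATP synthase (0.60 and 0.58, adjusted p = 0.00498 and 0.00528). Whether the accessory subunits of complex I differed from these lists was not tested.

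Of 9 listed regulators of respiratory genes, 1 was higher and 2 were lower post mortem, against 14.4% and 14.7% of all genes tested. For so few genes these counts are near those shares. Ppargc1a, a coactivator of mitochondrial biogenesis, was higher by 0.62 (adjusted p = 0.00172). Its relative Pprc1 was lower by 1.65 on the log2 scale, at 7.67, 7.22 and 7.63 in D4PM cells and 7.93 and 8.03 in D2PM cells, against 9.29 and 9.50 in old cells (adjusted p = 2.75e-05). Gabpb1, the partner of Gabpa, differed by -0.66 (adjusted p = 0.00279).

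Levels of myofibre and endothelial markers moved with the same groups, beside 14.4% of all genes tested that were higher and 14.7% that were lower post mortem. Of 12 tested myofibre markers 11 were higher post mortem (median 1.17), and their mean log2 level was 8.31 to 8.58 in D4PM cells and 8.29 to 8.47 in D2PM cells, against 7.09 to 7.48 in old cells. Of 10 endothelial markers 7 were higher (median 0.80), with mean levels of 6.95 to 7.60 in D4PM cells and 7.01 to 7.03 in D2PM cells, against 5.93 to 6.60 in old cells. Old replicate 2 was the lowest array for both lists, for the accessory subunits and for complexes II to V. Of the macrophage markers 0 of 5 were higher and 1 was lower, and of the fibroadipogenic progenitor markers 0 of 7 were called. Satellite cell markers had mean levels of 9.89 to 10.16 in D4PM cells, 9.95 to 10.04 in D2PM cells and 9.86 to 9.93 in old cells, and all 11 were above the filter. Of these 11, 4 were higher post mortem (Calcr, Spry1, Cd34 and Cxcr4, by 0.37 to 0.67) and 1 was lower (Vcam1, -0.73, adjusted p = 0.00201), while Pax7 was not called (0.30, adjusted p = 0.135). RMA values have no zero, so no marker could be listed as absent. The part of myofibre or endothelial RNA in the Nduf differences was not tested, and in bulk samples fewer cells of a type and less RNA per cell cannot be told apart.

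The level of each class was also followed array by array. With each gene set to its mean over the 7 arrays, the median of the accessory subunits was -0.04, 0.20 and 0.05 on the D4PM arrays and 0.34 and 0.12 on the D2PM arrays, against -0.24 and -0.44 on the old arrays. For the core subunits it was -0.01, 0.10 and -0.03 on the D4PM arrays and 0.30 and 0.03 on the D2PM arrays, against -0.19 and -0.13 on the old arrays. The assembly factors showed no such separation, at -0.17, 0.02 and -0.22 in D4PM cells and 0.19 and 0.04 in D2PM cells, against -0.20 and 0.00 in old cells. D2PM replicate 1 was the highest array in all 3 classes and in complexes II to V, where it stood at 0.28.

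**Figure D4:**
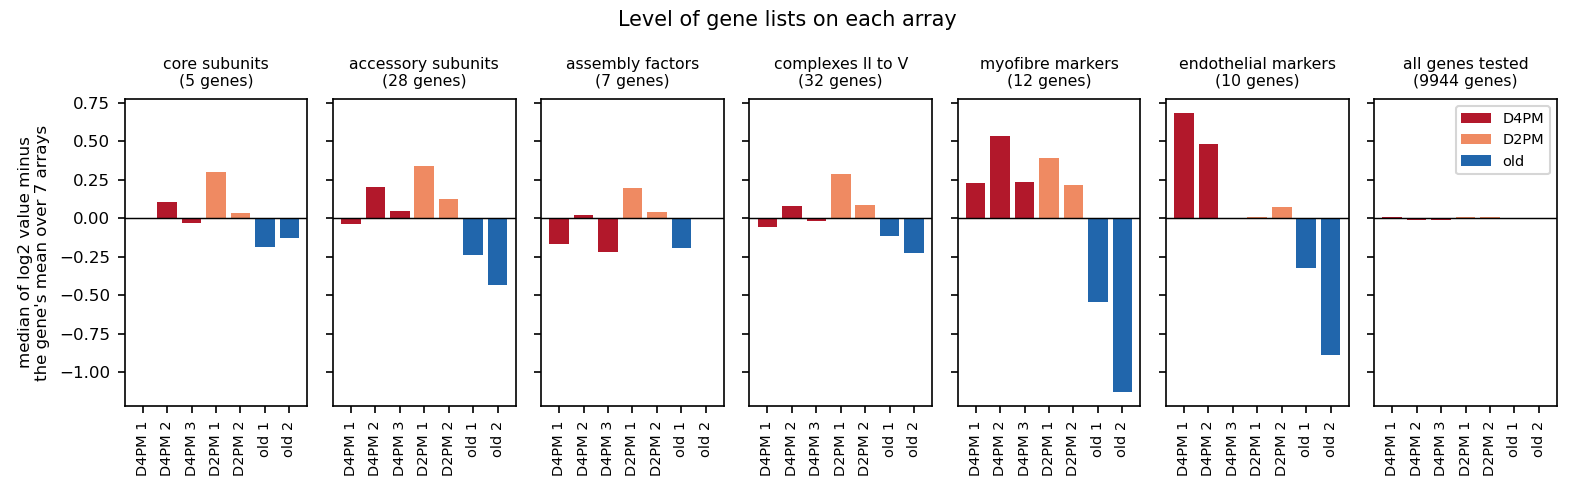
Median over the genes of a list of the log2 value minus the gene's mean over the 7 arrays (vertical axis), for each array, with D4PM in red, D2PM in orange and old in blue. Accessory subunits, complexes II to V and both marker lists are lowest on old replicate 2, at -0.44 for the accessory subunits, whereas assembly factors do not separate the groups.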

How the data were processed

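The values deposited by the authors were on the log2 scale, after RMA (background correction, quantile normalisation and summary per probe set). Per the methods, probes that were not expressed or did not vary had been taken out at an unstated threshold. The lowest SD of a probe set was 0.0914. A genome build behind the values is not given in the sources used here. The submitters' processing notes name RMA and limma. Array medians were 6.11 to 6.19 and array correlations 0.958 to 0.993, and arrays carry no depth, so that their number limits the precision. Columns of per-sample values that belonged to none of the samples numbered 0, and no column of the authors' own comparisons was used.

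Of 18675 probe sets, 14480 had a single gene, 774 several and 3421 none listed, and the 774 were named as no gene. Of the 14480, 14425 matched a RefSeq gene table of GRCm38.p6, which changed 0 symbols. The brightest probe set represented a gene, and 9944 genes with a mean of at least 5.12, the 25th percentile, were tested. The 3 group means were fitted in 1 model with limma 3.58.1 in R 4.3.3 (4 residual degrees of freedom, prior degrees of freedom 7.35), two-sided, with Benjamini-Hochberg adjustment over all genes tested and calls at an adjusted p under 0.05. Tested on simulated data, with 200 of 9944 genes changed in each of 20 runs, the model recovered 28.4% of log2 changes of 0.5 and 84.6% of changes of 1 for post mortem against old, and 19.6% and 79.6% for D4PM against D2PM. The share recovered after adjustment depends on how many genes change. Since 2887 of the 9944 genes were called post mortem against old in the data, the rates simulated for that comparison do not describe it. For D4PM against D2PM 19 genes were called in the data, so its simulated rates need not describe that comparison either.

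Members and lists were chosen with earlier results of these data known, so lists are described by counts and medians without a test. Any member could be named. Full statistics were given, per comparison and class, for the 4 called members with the largest difference (the 3 with the smallest unadjusted p where none was called), for members called against their class and for those with the highest and lowest mean signal, and for the 2 called genes with the largest difference of each other list. Other members with statistics were added after their values were seen. Alternatives were another normalisation, median centring, other filters, the mean of probe sets, a trended and robust prior, Student's t-test, a replicate block, the post-mortem arrays alone and leaving out each array.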

Additional observations from a re-analysis of the deposited data

How the results depend on the processing

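No called gene changed its direction under any alternative. With adjusted Student's t-tests the 24 higher and 1 lower genes post mortem became 11 and 0 (7.96% of all genes higher). The 16 and 1 of D4PM against old became 0 and 0, with 14 of all 9944 genes called. An unadjusted p under 0.05 was found there for 17 of the 42 and for 2747 of all genes. The 23 higher of D2PM against old became 0, with 15 of all genes called. For that comparison the unadjusted counts were 12 of the 42 and 2028 of all genes. Leaving out each array gave 1 to 25 higher and 0 to 1 lower post mortem, 0 to 17 higher and 0 to 1 lower in D4PM cells, and 0 to 23 higher and 0 to 1 lower in D2PM cells, with the fewest higher each time without old replicate 2 (for D2PM cells also without D2PM replicate 1). A group left with 1 array is assumed to vary like the others. The median of the assembly factors ran between -0.030 and 0.20 post mortem against old, and between -0.51 and -0.13 for D4PM against D2PM, where that of the core subunits ran between -0.25 and -0.065. Other normalisations, filters and priors gave 21 to 25 higher post mortem, with the lowest count under median centring. Over the same settings 10.9% to 17.9% of all genes were higher. D4PM against D2PM gave 0 calls among the 42 genes in every alternative. The deviations of arrays with the same number correlated at -0.08 to 0.05 and gave no sign of a pairing. They cannot exclude a pairing, since the 2 deviations in a group of 2 arrays mirror each other. With the replicate block 23 genes were higher post mortem, 12 in D4PM cells and 23 in D2PM cells, where 1 (Ndufaf4) was also lower. The shares of all genes higher in these comparisons were 14.6%, 11.8% and 11.2%. Between D4PM and D2PM, 54 of all genes were called with the block and 19 in the main fit. The only gene called post mortem against old in every alternative was Ndufa3, and Ndufaf4 lost its call with Student's t-test and without old replicate 2.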
